A study of Mus musculus with 4 samples.

Results

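Polycomb repressors, SWI/SNF remodellers and histone-modifying enzymes form a set of 42 genes, chosen by name, whose ATAC-seq peaks were compared between wild type (WT) and Tet2 KO primary myoblasts. They are 42 of the 22380 protein-coding genes of the GENCODE M1 annotation of mm9. A peak was counted for a gene when its centre lay from 10000 bp upstream of the gene start to the gene end, and it was a promoter peak when its centre lay from 1000 bp upstream to 100 bp downstream of any annotated start. All other peaks of the window were called other peaks. The 42 genes held 64 of the 25775 WT peaks and 15 of the 3836 Tet2 KO peaks.

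These genes encode much of the machinery that sets chromatin states. Polycomb repressive complex 2 (PRC2) methylates a lysine of the histone H3 tail, and PRC1 binds that mark through its Cbx subunits and ubiquitylates histone H2A, which keeps developmental genes silent. SWI/SNF complexes use ATP to slide or evict nucleosomes, and in muscle cells they open the loci that the myogenic factor Myod1 activates, while histone methyltransferases, demethylases, acetyltransferases and deacetylases write or erase the marks on those nucleosomes. Tet2 itself acts on DNA: it oxidises 5-methylcytosine, the first step of active demethylation.

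The myoblasts came from satellite cells, the stem cells of muscle fibres, of hindlimb muscle of C57BL/6 mice. The Tet2 KO mice carried a constitutive deletion of exon 3 of Tet2, so every cell of the animal lacked it, and the WT mice were the controls. By the labels both genotypes had 3 days in culture and 5000 cells per library, with 2 ATAC-seq samples each. Neither the age and sex of the animals behind these libraries nor any pooling of animals is given in the labels. The authors' general methods name young adult male mice as the default, without naming these libraries. What was analysed is 1 peak list per genotype, assigned by the name of the list and by its total, and each list names a single library. There is thus no replicate, no difference between genotypes was tested, and every interval below is a Wilson 95% interval for counting error only.

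The lists differ in background and in completeness. The background of the library, in fragments per position, was 0.649 in WT and 1.38 in Tet2 KO, and the median peak summit held 16 and 15 fragments. The fold enrichment of a summit over its local background, with a pseudocount of 1, had a median of 7.89 in WT and 5.59 in Tet2 KO. Each list skips peak numbers, 9707 up to 35482 in WT and 4403 up to 8239 in Tet2 KO, so a gene without a listed peak may have had one in the library. Of 6 myoblast markers, Myod1 and Des had a promoter peak in both lists, Cdh15, Itga7 and Pax7 had other peaks in WT, and Myf5 had 0. In Tet2 KO Cdh15 had 1 other peak, and Itga7, Pax7 and Myf5 had 0. Of the 4 genes whose proteins the sort excluded, Pecam1 had 3 WT peaks (1 at its promoter), Ptprc and Itgam had 1 other peak each and Ly6a had 0, and all 4 had 0 in Tet2 KO.

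In WT, 31 of the 42 genes had a listed peak (73.8%, interval 58.9 to 84.7%), against 49.4% of all coding genes. In Tet2 KO, 11 of 42 had one (26.2%, interval 15.3 to 41.1%), against 13.5% of all coding genes. At promoters, 19 of the 42 genes had a WT peak (45.2%, interval 31.2 to 60.1%) against 30.2% of all coding genes, and 7 had a Tet2 KO peak (16.7%, interval 8.32 to 30.6%) against 7.92%. The shares of the set lay above those of all coding genes in each of these 4 comparisons, with intervals that left out the share of all coding genes. This is no test, because the members were chosen with earlier results of these data known. Window length was not matched either: the windows span 2.89 Mb for the 42 genes and 1241 Mb for all 22380 coding genes. The shares of the set lay close to those of 126 other chromatin genes, of which 54.7% of the annotated loci had a WT and 18.8% a Tet2 KO promoter peak.

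The 64 WT peaks were 20 promoter and 44 other peaks, and the 15 Tet2 KO peaks were 8 and 7. The ratio of WT to Tet2 KO peaks was 4.27 for the set, 2.50 at promoters and 6.29 elsewhere. For all coding genes these ratios were 5.83, 4.05 and 7.69, and for the other chromatin genes 4.77, 3.07 and 7.62. With peaks under a -log10 q of 5 dropped from both lists the ratio of the set was 15.2, and with those under a fold of 5 it was 7.75. The excess of listed WT peaks was thus present in the set, and in all 3 groups of genes it was smaller at promoters than elsewhere. These ratios count listed peaks only. The lists skip 4403 of 8239 peak numbers in Tet2 KO and 9707 of 35482 in WT, so the ratios of all called peaks are unknown. Per gene, 24 members had more WT than Tet2 KO peaks, 6 had equal numbers above 0, and 1, Carm1, had more in Tet2 KO. In Carm1 the 2 Tet2 KO peaks lay inside a single WT peak of 653 bp.

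**Figure D1:**
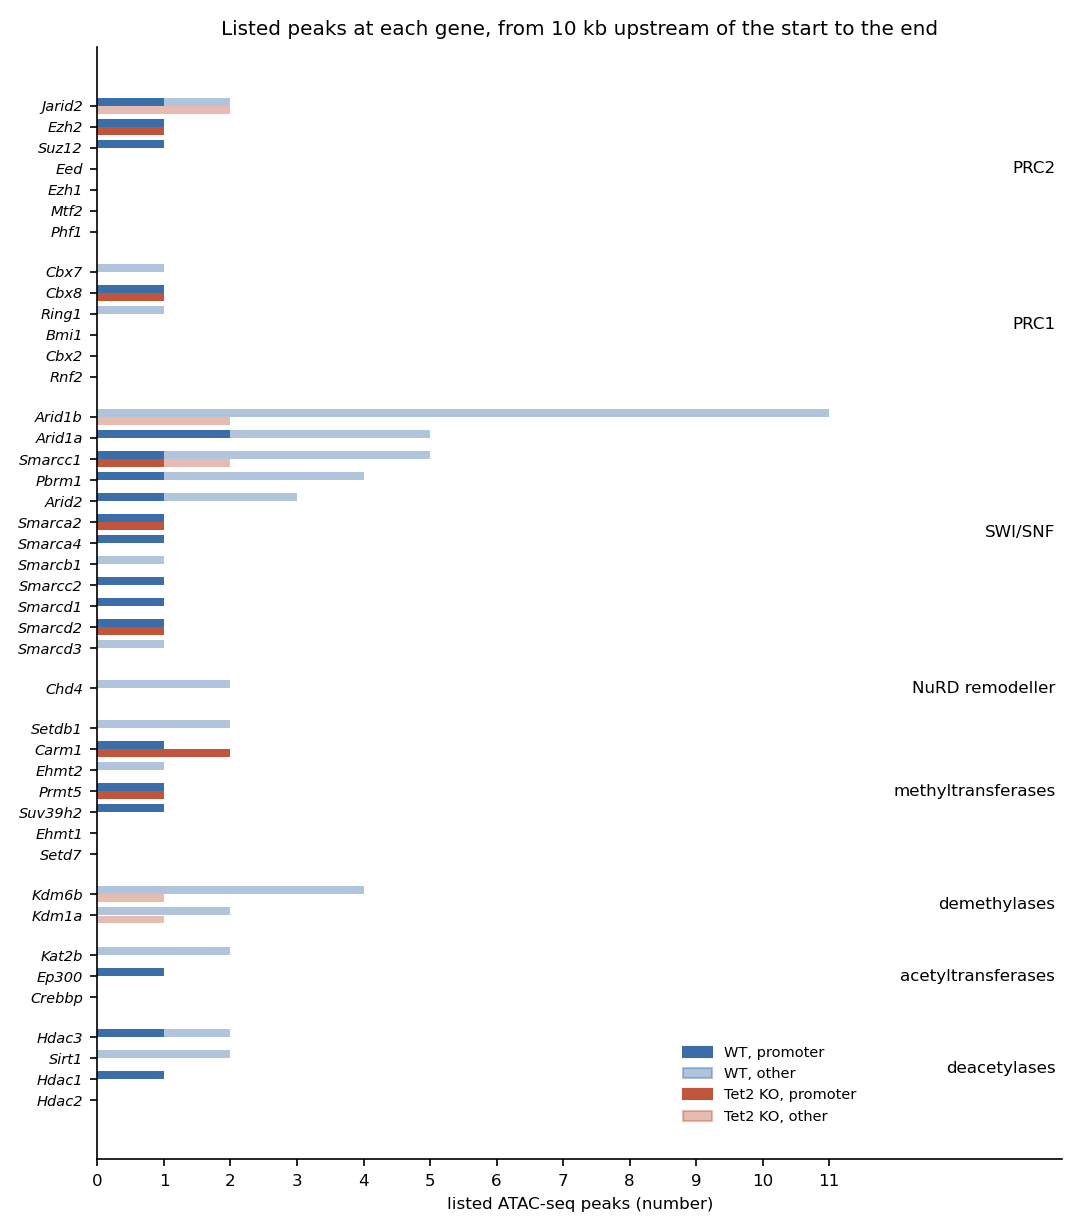
Number of listed WT (blue) and Tet2 KO (red) ATAC-seq peaks at each of the 42 genes, in groups by complex or enzyme class. Dark bars are promoter peaks and pale bars are other peaks. Arid1b has the most, with 11 WT peaks, all of the other class, and 11 genes have no bar.

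PRC2 is described first. Of its 7 genes, 3 had a WT peak, each with 1 at a promoter, and 2 had a Tet2 KO peak. Ezh2 encodes the catalytic methyltransferase of the complex. Its WT peak (chr6:47545006-47545233) lay 90 bp upstream of an annotated start and 221 bp inside the gene, in an intron, and had a fold enrichment of 10.1 with 19 fragments at the summit and a -log10 q of 15.2. The Tet2 KO peak (chr6:47545015-47545222) covered nearly the same bases at a fold of 5.45, with 12 fragments and a -log10 q of 4.52. Suz12, a core subunit that PRC2 needs for activity, had a WT promoter peak (chr11:79806256-79806798) with a fold of 6.70 and 13 fragments. No Tet2 KO peak was listed there. Eed, the third core subunit, which binds the methylated lysine, had 0 peaks in either list. Ezh1, the second methyltransferase, and Phf1 and Mtf2, Polycomb-like subunits that help PRC2 find its targets, also had 0.

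The summit sequences of the strongest PRC2, PRC1 and SWI/SNF promoter peaks with and without a Tet2 KO peak show what kind of DNA was open. They are given 5′ to 3′ on the plus strand of mm9, over the bases within 75 bp of the WT summit that lie outside annotated exons. Capitals mark matches on either strand to any of 9 motifs: the E box bound by Myod1 (CAGCTG), AP-1 (TGANTCA), ETS (CCGGAAG), NRF1 (GCGCATGC), SP/KLF (GGGCGG), CRE (TGACGTCA), NFY (GATTGG), YY1 (AAGATGG) and TEAD (GGAATG). None of these motifs contains another. A match is a run of letters and says nothing of binding.
Ezh2 with a Tet2 KO peak, chr6:47545030-47545144: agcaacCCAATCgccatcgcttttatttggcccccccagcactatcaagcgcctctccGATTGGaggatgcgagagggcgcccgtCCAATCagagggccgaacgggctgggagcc
Suz12 without, chr11:79806460-79806607: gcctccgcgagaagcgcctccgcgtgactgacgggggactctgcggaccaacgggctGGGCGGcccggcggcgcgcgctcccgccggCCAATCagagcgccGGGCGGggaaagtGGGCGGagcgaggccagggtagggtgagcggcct
Cbx8 with, chr11:118902347-118902497: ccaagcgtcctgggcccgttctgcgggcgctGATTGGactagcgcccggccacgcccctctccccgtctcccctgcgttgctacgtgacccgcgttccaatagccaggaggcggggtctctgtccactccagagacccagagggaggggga
Smarcd2 with, chr11:106134294-106134444: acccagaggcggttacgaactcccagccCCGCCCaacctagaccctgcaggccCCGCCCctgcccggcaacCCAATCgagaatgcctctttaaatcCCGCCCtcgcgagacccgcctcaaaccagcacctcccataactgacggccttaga
Smarcc2 without, chr10:127895414-127895564: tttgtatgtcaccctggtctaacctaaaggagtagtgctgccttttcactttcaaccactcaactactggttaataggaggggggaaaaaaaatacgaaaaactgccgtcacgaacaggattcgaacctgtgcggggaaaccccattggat
The Ezh2 stretch holds 3 NFY matches, and the Suz12 and Smarcd2 stretches each hold 3 SP/KLF matches and 1 NFY match. The Cbx8 stretch holds 1 NFY match, and the Smarcc2 stretch, 769 bp upstream of the start, holds none of the 9 motifs. Neighbouring promoters were looked for only among coding genes, so the promoter of a noncoding gene at these peaks would be missed.

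Jarid2, a PRC2 cofactor that helps recruit the complex, held the pair of peaks that departs from the rest, in sequence partly repeated in the genome. It had 2 WT and 2 Tet2 KO peaks. The WT promoter peak (chr13:44825894-44826095) lay 149 bp upstream of an internal start, with a fold of 5.49 and 12 fragments, and had no Tet2 KO peak. The other WT peak was 140145 bp into the gene, in an intron (chr13:44964937-44965040), with a fold of 8.49 and 13 fragments. There the Tet2 KO list had its peak of the highest fold in the set (chr13:44964925-44965098), at 12.6 with 30 fragments and a -log10 q of 23.9. This was the only one of 14 overlapping pairs of the set with the higher fold in Tet2 KO, against 1.85% of all 3722 pairs. A second Tet2 KO peak lay close by (chr13:44965287-44965392), at 5.30 with 12 fragments. It was the only Tet2 KO peak of the set without a WT peak. Of the 15 Tet2 KO peaks of the set 14 overlapped a WT peak, against 96.8% of all 3836.

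The intronic Jarid2 sequence occurs elsewhere in the genome too. Of the 31-base words of the WT peak 37.8% occur more than once in mm9, up to 7 times, and of those of the 2 Tet2 KO peaks 34.7% and 100%, up to 8 and 9 times. Across the set 13 of 64 WT peaks and 5 of 15 Tet2 KO peaks held any repeated word, and over 30% of the words were repeated in 3 and 2 of them. Those 3 WT peaks were of Jarid2, Pbrm1 and Setdb1, and both Tet2 KO peaks were of Jarid2. Words were counted for the peaks of the set only, so no share over all listed peaks stands beside these counts. The stretch is shown because it is the pair that departs from the rest, and it was chosen after its values were seen. It holds 1 TEAD match and 12 CpG. The word counts cover the mm9 reference only, so copies that it leaves out are not in them. Whether the fragments of these peaks came from Jarid2 was not tested, nor was the part of the repeated words in the Tet2 KO value.
Jarid2 intron, chr13:44964930-44965080: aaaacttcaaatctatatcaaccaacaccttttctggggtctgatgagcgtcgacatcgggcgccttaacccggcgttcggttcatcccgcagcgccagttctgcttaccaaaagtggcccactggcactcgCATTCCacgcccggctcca
Without the peaks with over 30% repeated words the set had 61 WT and 13 Tet2 KO peaks, a ratio of 4.69.

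Of the 6 PRC1 genes, 3 had a WT peak and 1, Cbx8, had a Tet2 KO peak. Cbx8 encodes a chromodomain subunit, and its WT promoter peak (chr11:118902203-118902569) had a fold of 13.0 with 29 fragments and a -log10 q of 25.0, higher than 93.2% of the WT promoter peaks of coding genes. The Tet2 KO peak (chr11:118902346-118902531) had a fold of 4.83 with 16 fragments. Cbx7, which encodes another chromodomain subunit, had 1 WT peak, in an intron 19026 bp from the start (chr15:79782448-79782598, fold 6.91, 14 fragments). Ring1, a ubiquitin ligase of the complex, had 1 WT peak 3411 bp upstream (chr17:34164942-34165130, fold 6.45, 17 fragments), and this peak lies at the promoter of the neighbouring gene H2-Ke6. Rnf2, the other ligase, Bmi1, which stimulates the ligases, and Cbx2 had 0 peaks in either list. Together the 13 Polycomb genes had 7 WT and 4 Tet2 KO peaks, and 4 of them had a WT promoter peak.

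The 12 SWI/SNF genes held 35 of the 64 WT peaks. Each of the 12 had at least 1 WT peak (100%, interval 75.8 to 100%), 9 had one at a promoter, and 4 had a Tet2 KO peak, 6 peaks in all. Of all coding genes 49.4% had a WT peak, 30.2% had one at a promoter and 13.5% had a Tet2 KO peak. Of the loci of the other chromatin genes 74.2% had a WT peak. Window length was not matched: the windows span 1.23 Mb for the 12 genes and 1241 Mb for all 22380 coding genes. Arid1b alone held 11 of the 35 WT peaks. The SWI/SNF windows carried 28.5 WT peaks per Mb, against 22.2 for the whole set and 17.1 for all coding genes. PRC2 had 8.37, PRC1 17.3, the methyltransferases 16.4, the acetyltransferases 9.04 and the deacetylases 28.4. The 2 demethylase genes had 68.7 and Chd4 alone had 44.8. Smarca4 and Smarca2 encode the alternative ATPases. The Smarca4 promoter had a WT peak of fold 7.18 with 13 fragments (chr9:21420396-21420620) and no Tet2 KO peak. At the Smarca2 promoter the WT peak (chr19:26679372-26679736) had a fold of 10.6 with 26 fragments, and the Tet2 KO peak (chr19:26679429-26679609) had 4.58 with 11.

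Smarcc1, a scaffold subunit, had 5 WT and 2 Tet2 KO peaks. The promoter peak had a fold of 8.38 with 15 fragments in WT (chr9:110034279-110034592) and 4.61 with 10 in Tet2 KO (chr9:110034341-110034446). The 4 other WT peaks lay in introns, at 7274, 30558, 73798 and 74148 bp from the start, with folds of 10.7, 17.5, 12.3 and 12.8. The peak at 30558 bp (chr9:110064900-110065298) was the strongest of the whole set, with 43 fragments and a -log10 q of 41.1, and its fold exceeded that of 99.8% of the other WT peaks in coding gene windows. It was the only intronic Smarcc1 peak with a Tet2 KO peak (chr9:110064900-110065191), of fold 7.22 with 18 fragments. Of the words of this WT peak, counted as for Jarid2, 8.94% are repeated in the genome, up to 1224 times. The pair at 73798 and 74148 bp had 29 and 30 fragments in WT, more than most peaks of the set, and none listed in Tet2 KO.

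Arid1b encodes a DNA-binding subunit, and at 353 kb it is the longest gene of the set. It had 11 WT peaks, all in introns between 64.2 and 271 kb from its start, and no promoter peak in either list. Their folds ran from 5.33 to 12.8 with a median of 9.30, and their summits held 8 to 34 fragments. Only 2 of the 11 had a Tet2 KO peak, and these were not the strongest. The WT peak of fold 9.30 and 23 fragments (chr17:5189783-5190322) met a Tet2 KO peak of 5.15 and 12 fragments (chr17:5189921-5190291). The WT peak of fold 11.1 and 24 fragments (chr17:5235114-5235311) met one of 4.61 and 10 (chr17:5235087-5235258). Without Arid1b the set had 53 WT and 13 Tet2 KO peaks, a ratio of 4.08.

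The strongest other WT peaks with an E box or AP-1 match lay in Smarcc1 and Arid1b, and 3 of the first 4 by fold are shown, because they were among the strongest peaks away from promoters. The Smarcc1 peaks are those at 30558 bp from the start, with a Tet2 KO peak, and at 73798 bp, without one. The Arid1b peak lies 144558 bp from the start, with a fold of 12.8 and 34 fragments, and has no Tet2 KO peak. The Smarcc1 peak at 74148 bp, also of fold 12.8, is not shown because the E boxes near its summit lie in 50 bases annotated as exon.
Smarcc1 intron, first, chr9:110065045-110065195: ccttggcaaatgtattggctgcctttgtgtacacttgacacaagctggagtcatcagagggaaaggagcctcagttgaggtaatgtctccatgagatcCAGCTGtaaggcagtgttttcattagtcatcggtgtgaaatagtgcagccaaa
Arid1b intron, chr17:5138891-5139041: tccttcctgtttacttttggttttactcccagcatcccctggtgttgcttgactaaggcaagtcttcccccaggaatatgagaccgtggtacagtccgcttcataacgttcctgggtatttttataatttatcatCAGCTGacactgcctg
Smarcc1 intron, second, chr9:110108276-110108426: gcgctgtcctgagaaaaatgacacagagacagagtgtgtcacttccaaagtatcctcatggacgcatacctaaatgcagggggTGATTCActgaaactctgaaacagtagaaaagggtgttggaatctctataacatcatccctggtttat
The first 2 stretches hold 1 E box each, and the last holds an AP-1 match. They hold 1, 3 and 2 CpG, while the Smarcd2 promoter stretch of the same length holds 11.

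Arid1a, the paralogue of Arid1b, had 5 WT and 0 Tet2 KO peaks. Its 2 promoter peaks were weak, with a fold of 4.18 and 10 fragments at 857 bp upstream (chr4:133313492-133313591) and 5.36 and 14 at an internal start (chr4:133310254-133310353). The strongest Arid1a peak was intronic, 26970 bp from the start (chr4:133285454-133285974), with a fold of 11.4 and 28 fragments. Pbrm1, the bromodomain-rich subunit of the PBAF complex, had 4 WT peaks, all between 59803 and 71010 bp into the gene, with folds of 7.58 to 8.67 and 14 to 18 fragments. The one counted as a promoter peak (chr14:31901840-31901966) sits at an internal start. Of the words of the Pbrm1 peaks at 59803 and 60349 bp, 9.95% and 64.9% are repeated in the genome, up to 24 and 59 times. Arid2, another PBAF subunit, had 3 WT peaks upstream of the gene, with folds of 7.6, 4.51 and 5.62, the last at the promoter. Neither gene had a Tet2 KO peak.

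Among the smaller SWI/SNF genes Smarcd2 had a promoter peak in both lists. In WT it had a fold of 10.9 with 26 fragments (chr11:106134163-106134480), and in Tet2 KO 4.28 with 12 (chr11:106134218-106134393). Its paralogue Smarcd1 had a WT promoter peak of fold 5.45 with 10 fragments. The third paralogue Smarcd3, the form enriched in muscle, had an intronic WT peak 1599 bp from the start (chr5:24106130-24106333, fold 8.43, 29 fragments). Smarcb1, a core subunit, had an intronic WT peak of fold 11.7 with 29 fragments (chr10:75361667-75361914). The scaffold subunit Smarcc2 had a WT promoter peak of fold 7.69 with 14 fragments. None of Smarcd1, Smarcd3, Smarcb1 and Smarcc2 had a listed Tet2 KO peak.

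**Figure D2:**
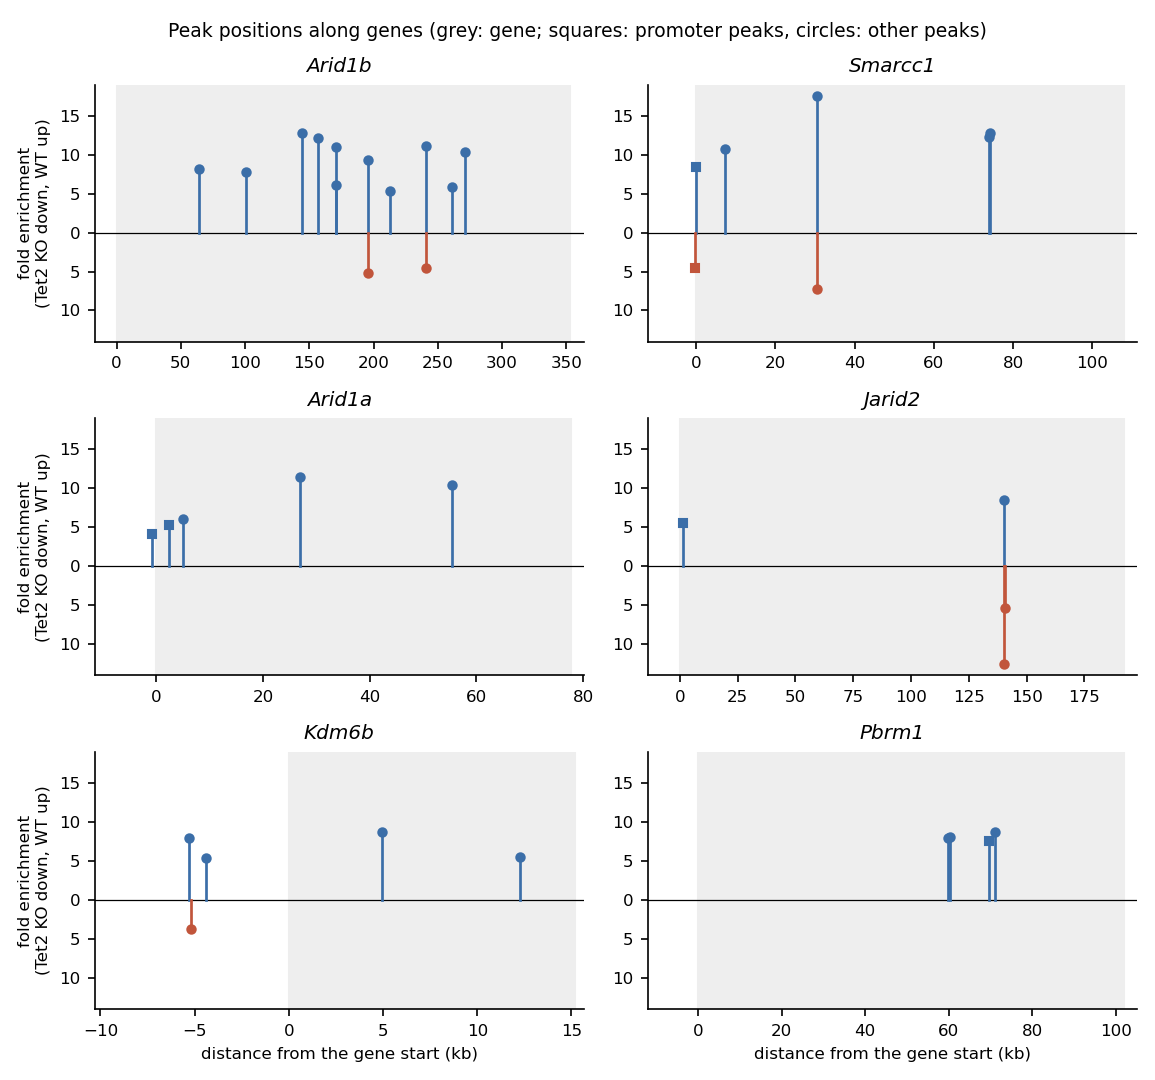
Fold enrichment of the listed peaks against their distance in kb from the gene start for 6 genes, with WT (blue) drawn upward and Tet2 KO (red) downward. Grey marks the gene, squares are promoter peaks and circles other peaks. The 2 Tet2 KO peaks of Arid1b sit at 2 of its 11 WT positions, and Jarid2 is the one panel where a Tet2 KO peak reaches farther than the WT peak.

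The 17 remaining genes, mostly histone-modifying enzymes, held 22 WT and 5 Tet2 KO peaks, and 13 of them had a WT peak. Both arginine methyltransferases had promoter peaks in each list. Prmt5 had the strongest WT promoter peak of the set (chr14:55136169-55136650), with a fold of 13.4, 40 fragments and a -log10 q of 32.3, and in Tet2 KO a fold of 6.53 with 18 fragments (chr14:55136173-55136577). Carm1 had a WT peak of fold 10.1 with 29 fragments (chr9:21350563-21351215). Inside it Tet2 KO had a peak of 4.79 with 15 fragments (chr9:21350565-21350767) and one of 6.84 with 22 (chr9:21350866-21351195).

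The 5 lysine methyltransferase genes had 4 WT peaks. Suv39h2, which writes a mark of heterochromatin, had a WT promoter peak of fold 8.43 with 14 fragments. Setdb1, which silences retroelements, had 2 WT peaks about 3 kb upstream, at 3152 and 3380 bp (chr3:95164176-95164377 and chr3:95164435-95164573). They had folds of 6.84 and 6.81 and 12 fragments each. Of their words, counted as for Jarid2, 41.3% and 22.0% are repeated in the genome, up to 8392 and 59 times. Ehmt2 had 1 WT peak 4311 bp upstream (chr17:35031033-35031174, fold 6.22, 13 fragments), which lies at the promoter of Zbtb12. Its partner Ehmt1 and the methyltransferase Setd7 had 0 peaks in either list. None of these 5 genes had a Tet2 KO peak.

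The 2 demethylase genes had Tet2 KO peaks but no listed promoter peak. Kdm6b, which removes the mark that PRC2 writes, had 4 WT peaks. The peak 5306 bp upstream (chr11:69232342-69232624) had a fold of 8.0 with 33 fragments, and the Tet2 KO peak beside it (chr11:69232335-69232440) had 3.76 with 16, the lowest fold of the 15. The 3 others, at 4413 bp upstream and at 4928 and 12259 bp inside the gene, had folds of 5.41, 8.72 and 5.56 and 22, 27 and 10 fragments, and no Tet2 KO peak. Kdm1a, which removes methyl groups from the histone H3 tail, had 2 intronic WT peaks, of 7.82 with 13 fragments (chr4:136126057-136126249) and 9.69 with 21 (chr4:136154446-136154777). The weaker one had a Tet2 KO peak (chr4:136126126-136126270) of 5.45 with 12 fragments. Of the 31-base words of this weaker WT peak 19.6% are repeated in the genome, up to 7961 times.

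None of the 8 genes for acetyltransferases, deacetylases and the NuRD remodeller had a listed Tet2 KO peak, where 13.5% of all coding genes did, and 8 genes are too few to set them apart from that share. Hdac1, a class I deacetylase, had the strongest WT promoter peak of the set without one (chr4:129219837-129220199), with a fold of 10.8 and 22 fragments. Ep300, a coactivator acetyltransferase, had a WT promoter peak of fold 7.94 with 16 fragments. Kat2b, an acetyltransferase that acts with Myod1, had 2 intronic WT peaks of fold 9.09 and 12 with 20 and 22 fragments (chr17:53726496-53726705 and chr17:53735783-53736068). Hdac3 had a WT promoter peak of fold 6.45 that it shares with Rell2, and a second peak of 6.51 beside it. Sirt1, an NAD-dependent deacetylase, had 2 other WT peaks of 8.24 (chr10:62789998-62790146) and 6.35 (chr10:62849311-62849424), the latter at the promoter of Dnajc12. Chd4, the ATPase of NuRD, had 2 of 7.08 (chr6:125038668-125038791) and 6.00 (chr6:125049470-125049608). Crebbp and Hdac2 had 0 peaks in either list.

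The number of skipped peaks bears on what an absent peak means. For each gene without a listed promoter peak, the peak numbers on either side of its starts show how many were skipped. Of the 35 members without a Tet2 KO promoter peak, 7 had no skipped Tet2 KO number (Rnf2, Cbx2, Phf1, Smarca4, Kdm1a, Kat2b and Sirt1), 20% against 18.5% of all such coding genes. Of the 12 members with a WT and no Tet2 KO promoter peak, Smarca4 was the only one with no skipped number, so it is the only one of them where no peak was numbered. For the other 11, including Suz12, Ep300 and Hdac1, a Tet2 KO peak could have been called and left out of the list. Of the 23 members without a WT promoter peak, 5 had no skipped WT number (Eed, Cbx2, Kdm1a, Crebbp and Chd4), 21.7% against 47.6% of coding genes. At Kdm6b 3 WT numbers were skipped within the 9164 bp that hold its main start, so its missing promoter peak cannot be read as closed chromatin. Of the 11 genes with 0 peaks in both lists, only Eed, Cbx2 and Crebbp had no skipped WT number.

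WT promoter peaks with a Tet2 KO peak were mostly the stronger ones. Of the 20 WT promoter peaks 7 overlapped a Tet2 KO peak by at least 1 bp (35.0%, interval 18.1 to 56.7%), against 23.6% for all coding genes. Of the 44 other WT peaks 6 did (13.6%, interval 6.40 to 26.7%), against 12.2%. Both intervals include the share of all coding genes. The promoter share of the set was 10.5% when peaks under a -log10 q of 5 were dropped from both lists and 15.8% when those under a fold of 5 were, and the share at other peaks was 4.76% under the former limit. The 7 promoter peaks with a Tet2 KO peak had WT folds of 8.38 to 13.4 with a median of 10.6, and the 13 without had 4.18 to 10.8 with a median of 6.70. The ranges overlapped: Suv39h2 and Hdac1, without a Tet2 KO peak, lay above Smarcc1, the weakest with one. At other positions the separation was smaller, with medians of 8.90 with and 8.07 without a Tet2 KO peak.

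Over all coding genes the share rose with fold at both positions. With their WT promoter peaks ranked by fold into 5 groups, 2.47% of the weakest and 61.4% of the strongest had a Tet2 KO peak, and for other peaks 1.76% and 35.2%. In the set 0 of 8 promoter peaks in the weakest 2 groups and 6 of 7 in the strongest 2 had one. At other positions the counts of the set did not rise throughout, but they were small and were not tested. From the weakest group to the strongest, 0 of 7, 0 of 9, 2 of 9, 2 of 6 and 2 of 13 peaks had one. Those of the strongest group were Smarcc1 at 30558 bp and Arid1b at 240880 bp. The 11 without were 4 of Arid1b, 3 of Smarcc1, 2 of Arid1a, 1 of Smarcb1 and 1 of Kat2b.

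**Figure D3:**
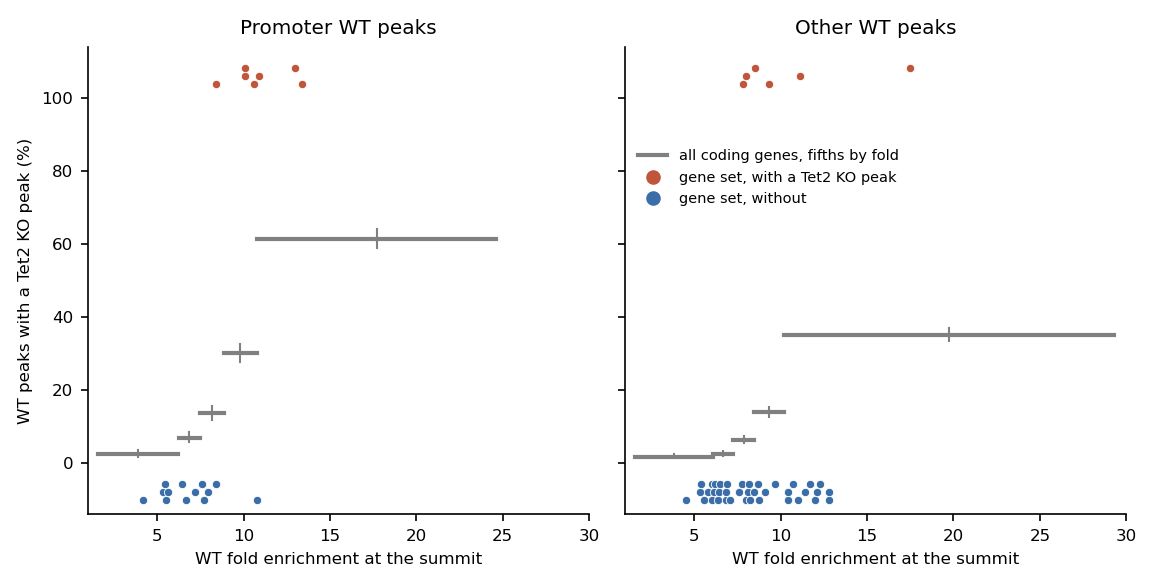
Share of WT peaks with a Tet2 KO peak (%) against WT fold enrichment, for promoter (left) and other (right) peaks. Grey lines span each group of all coding genes, with vertical bars for the 95% interval, and dots above 100% and below 0% are the single WT peaks of the gene set with (red) and without (blue) a Tet2 KO peak. The red promoter dots sit at 8.38 and above.

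Where both lists had a peak, the values were lower in Tet2 KO in 13 of 14 pairs, both as fold and as fragments. The ratio of the Tet2 KO to the WT fold ran from 0.370 at Cbx8 to 1.49 at Jarid2, with a median of 0.479, against 0.529 for all 3722 pairs. The ratio of summit fragments had a median of 0.519 and ran from 0.417 to 2.31. The background of the Tet2 KO library was the higher of the pair in 12 of 14. Traits of the library, such as its background, and genotype cannot be told apart with 1 library each. The WT peaks of the set had 8 to 43 summit fragments with a median of 16, and the Tet2 KO peaks 10 to 30 with a median of 12.

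**Figure D4:**
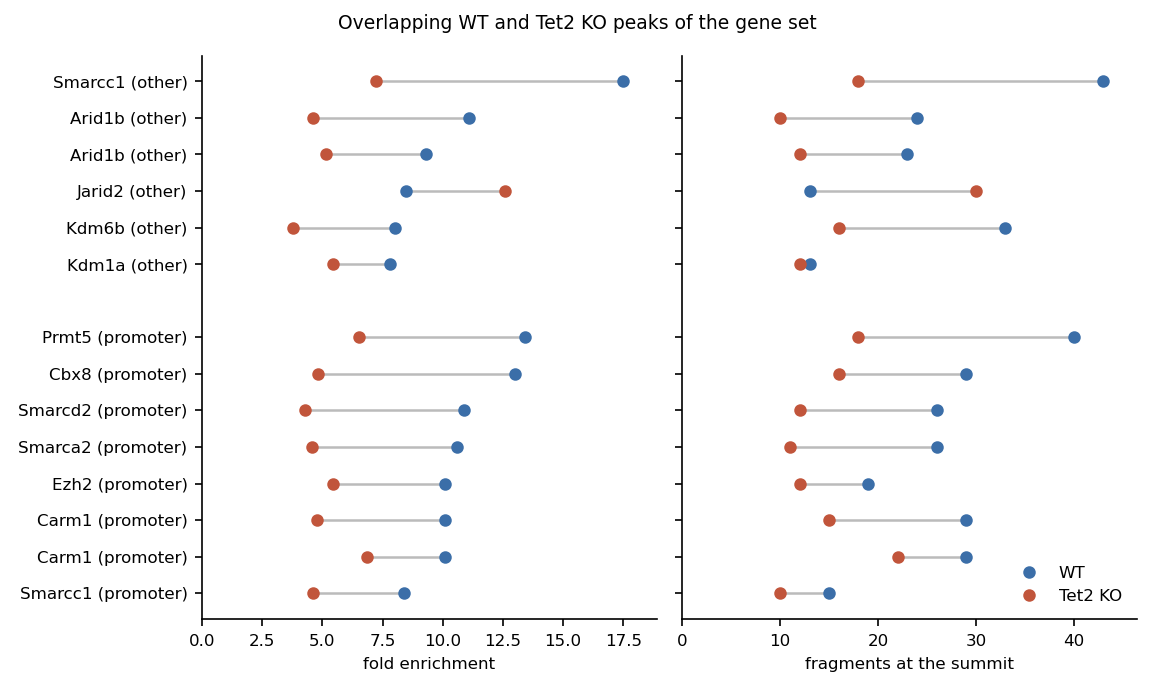
Fold enrichment (left) and fragments at the summit (right) of the 14 pairs of overlapping WT (blue) and Tet2 KO (red) peaks, with the gene and the class of the Tet2 KO peak. Carm1 appears with 2 Tet2 KO peaks against the same WT peak, and Jarid2 is the one row with the red dot to the right.

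Promoter peaks lie close to starts by definition, from 1000 bp upstream to 100 bp downstream. The WT promoter peaks had their centres 857 to 8 bp upstream of the nearest start, with a median of 104 bp, and 13 of 20 lay within 150 bp. At Ezh2, Jarid2, Arid1a and Pbrm1 a promoter peak sat at an internal start. Of the 44 other WT peaks 32 were intronic, 10 upstream and 2 exonic, and 4 lay at the promoter of a neighbouring coding gene. SWI/SNF genes held 25 of these 44, with a median fold of 9.30, and the other 19 had a median of 6.91. The nearest peak left out by the window was a WT peak of Smarcd3, of fold 8.04, 135 bp beyond the upstream edge. Across the edge of the promoter definition, Arid1a at 857 bp upstream was the farthest peak inside and Hdac3 at 177 bp downstream the nearest outside.

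The DNA under the promoter peaks was rich in CpG. In 201 bp at the WT summit the GC content had a median of 64.9% and the ratio of observed to expected CpG one of 0.836, against 63.2% and 0.750 for all coding genes. Other peaks had 52.7% and 0.250, against 52.2% and 0.223. The promoter peaks with a Tet2 KO peak had CpG ratios of 0.568 to 0.967 and those without 0 to 1.07, so the ranges lay one inside the other. Of the 20 promoter peaks 2 had a ratio under 0.6, Prmt5 and Pbrm1. Of the 44 other peaks 8 had 0.6 or more, at Arid1b, Arid2, Ehmt2, Jarid2, Kdm6b, Ring1 and Sirt1.

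**Figure D5:**
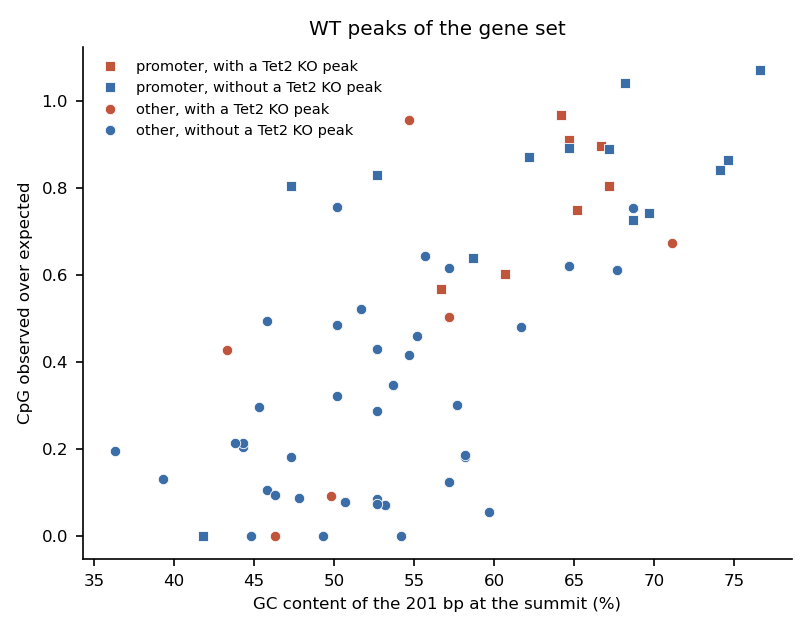
Observed over expected CpG against GC content (%) in the 201 bp at the summit of the 64 WT peaks, for promoter (squares) and other (circles) peaks, with (red) and without (blue) a Tet2 KO peak. Most squares lie in the upper right, and the square at a ratio of 0 is the internal Pbrm1 peak.

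Motif matches were counted in the same 201 bp. At WT promoter peaks the SP/KLF letters were in 55.0% of the set and 60.3% of all coding gene peaks, the ETS letters in 10% and 16.3%, and the E box in 10% and 14.7%. The NFY letters were in 9 of 20 promoter peaks of the set (45.0%) against 25.1%, and in 9 of 44 other peaks (20.5%) against 8.79%. The NRF1 letters were in 3 of 20 (15%) against 3.14%, the CRE letters in 1 of 20 against 2.87% and the YY1 letters in 0 of 20 against 4.55%. The E box was in 34.1% of other WT peaks against 38.2%, AP-1 in 36.4% against 38.7% and TEAD in 18.2% against 19.1%. These shares describe the letters and were not tested.

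Away from promoters 11 of the 44 WT peaks held an E box without AP-1, 12 held AP-1 without an E box, 4 held both and 17 neither. A Tet2 KO peak was listed at 1, 2, 0 and 3 of these. Median folds were 8.43, 7.80, 10 and 8.0, with ranges that overlapped throughout. The 4 with both were in Arid1b (2), Kdm1a and Setdb1. In Arid1b 4 of the 11 peaks held an E box and 7 held AP-1. At promoters NFY letters were in 4 of the 7 peaks with and 5 of the 13 without a Tet2 KO peak, and SP/KLF letters in 4 of 7 and 7 of 13.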

How the data were processed

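ATAC-seq of 2 WT and 2 Tet2 KO myoblast samples was used. The authors cut the 150 bp read pairs to 36 bp and mapped them to mm9 by Bowtie2. Pairs under a mapping quality of 30 and Picard duplicates were dropped, and MACS2 called peaks at a stated q of 0.01. Past that limit, at a −log10 q under 2, lie 55 of the listed Tet2 KO peaks (lowest value 0.863) and 0 of the WT peaks. Tool versions are not given in the sources used here. Each deposited peak list holds 1 library, was not pooled and skips peak numbers by a step that is not named. The deposited score is 10 times a −log10 value, and the deposited fold is a ratio of the summit to the local background. The deposited −log10 p and −log10 q are the summit values of MACS2. The unused per-sample columns number 0.

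Summit and background fragments were solved with the Poisson tail that MACS2 uses, matching the deposited −log10 p within 0.002. Total read numbers are unknown. Starts, exons and sequence came from GENCODE M1 and NCBIM37 (mm9), and sequences are credited to that build. Shares have Wilson 95% intervals, and no test was possible with 1 list per genotype. Repeated 31-base words were counted over mm9 on both strands. The members and gene lists were chosen with earlier results of these data known. Full values were given for members with a Tet2 KO peak, with most WT peaks or without a WT promoter peak, and sequences for the strongest WT promoter peaks with and without a Tet2 KO peak and for 3 of the 4 strongest other peaks with an E box or AP-1 match, the one left out having its matches in exon bases. Of 138 other chromatin gene names, 126 matched the annotation, at 128 loci. The alternatives tried were limits on q and fold, placement rules, start sets, promoter and gene windows, merging of peaks and overlap rules, and, chosen after seeing the data, leaving out repeated peaks, Arid1b or Jarid2. Calculations were tested on simulated data. Software comprised scipy 1.17.1, numpy 2.4.6, matplotlib 3.10.9 and pandas 2.3.3 under Python 3.11.15. The other samples of the series are not used here.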

Additional observations from a re-analysis of the deposited data

How the results depend on the processing

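When peaks under a -log10 q of 5 were dropped from both lists, the set had 4 Tet2 KO peaks and a WT to Tet2 KO ratio of 15.2, 2 members had a Tet2 KO promoter peak, and 10.5% of WT promoter and 4.76% of other WT peaks had a Tet2 KO peak. With a fold of at least 5 these were 8 peaks, a ratio of 7.75, 3 members and 15.8% of promoter peaks. Both limits remove weak peaks, and the Tet2 KO peaks have the lower values. The gene body alone held 38 WT and 7 Tet2 KO peaks, and windows of 50000 bp on either side 165 and 34, as the span counted changed. Every other alternative set out at the start kept these counts within 1.5 times, and the shares within their intervals, as did leaving out the repeated peaks, Arid1b or Jarid2. Of 756 counts of single genes under the alternatives, 662 stayed within 1.5 times, 52 fell and 42 rose past that. No paired analysis was possible because the peaks of each genotype come as 1 list. At these fragment numbers, and with peak numbers skipped, a gene without a listed peak was not shown to be closed.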
